A study of Mus musculus with 11 samples.

Results

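The clustered protocadherins are the alpha, beta and gamma protocadherin genes, which lie side by side on mouse chromosome 18. They were chosen by gene symbol, taking every gene row of the count table whose identifier maps to a Pcdha, Pcdhb or Pcdhg cluster name. The rule found 24 of 39017 gene rows, made up of 22 beta genes, 1 alpha row and 1 gamma row. The family was picked for description after knockout and control values in these libraries had been seen, Pcdhb2 among them, so the counts below describe the family and do not test it independently.

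Polyadenylated RNA was sequenced in bulk from the neocortex and from the CA1 region of the hippocampus of mice aged 13 to 14 weeks. Knockout (KO) mice carried Camk2a-Cre and 2 floxed alleles of Dicer (Camk2a-Cre;Dicer flox/flox), in which Cre, driven by a promoter active in forebrain excitatory neurons, removes the RNase that makes mature miRNAs. Control mice are labelled only as controls, and whether they carried Cre, floxed alleles or neither is not given in the labels. No drug or other treatment is described for any group. The neocortex was taken from 3 KO males (D5130, D5132 and D5133) and 3 control males (D5129, D5134 and D5135). The CA1 was taken from 2 KO males (D5130 and D5133), 2 control males (D5134 and D5135) and 1 control female (D5138). Other cells of the tissue keep Dicer, and in such bulk samples fewer cells of a type and less RNA per cell cannot be told apart.

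Clustered protocadherins are cadherin-like adhesion proteins of the neuronal surface that bind copies of themselves on neighbouring membranes. Single neurons switch on a small, partly random set of alpha, beta and gamma promoters, a choice that depends on DNA looping by CTCF and cohesin and on DNA methylation, and the resulting combinations let a neuron tell its own branches from those of others. Each alpha or gamma variable exon is spliced to constant exons shared by its whole cluster. A beta gene is in most cases a single exon with its own 3′ UTR and lacks the shared cytoplasmic domain.

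Gene reads came to between 43144097 and 58329441 per neocortex library and between 24806581 and 35684618 per CA1 library, and the protocadherin rows took 0.0952% to 0.110% of them. The targeted gene, Dicer1, stood at 59.0 to 63.3 CPM (reads scaled to the size of the library) in the neocortex KO libraries and at 59.3 to 66.5 in their controls. In the CA1 it stood at 71.6 and 73.3 CPM in the KO libraries against 68.7 to 75.2. The ranges overlapped in both tissues, and since a gene-level count adds up all exons, including those outside a floxed exon, it does not check the genotype labels. Among excitatory neuron markers, the synaptic kinase Itpka fell in both tissues, Nrgn fell in the neocortex and Neurod6 in the CA1, which is 2 of 8 markers in each. The 8 markers, which include Camk2a and Slc17a7, were read in every library.

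The alpha and gamma clusters entered the table as 1 row each. The alpha row (ENSMUSG00000007440, given the symbol Pcdha11 by the annotation) covers GRCm38 chromosome 18 from 36930285 to 37187657, 257373 bases that hold the starts of all 14 annotated alpha genes. The gamma row (ENSMUSG00000023036, symbol Pcdhgc4) runs from 37674335 to 37841873 and holds the starts of 20 of 22 annotated gamma genes. Pcdhga1 and Pcdhga2 start upstream of it. Of 58 annotated cluster genes, 34 therefore have no row of their own, and the C-type isoforms Pcdhac1, Pcdhac2, Pcdhgc3, Pcdhgc4 and Pcdhgc5, which are regulated apart from the other isoforms, have no separate value. A value of the alpha or gamma row is a total over the cluster and does not show how the choice among its promoters changed.

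The 22 beta genes each had a row, from Pcdhb1, which starts at 37264998, to Pcdhb22, which ends at 37521419, all on the same strand. Pcdhb2, Pcdhb6, Pcdhb8 and Pcdhb22 have annotated transcripts of up to 2 exons. Some rows, among them those of Pcdhb6, Pcdhb8, Pcdhb14, Pcdhb17 and Pcdhb22, stop before the annotated end of the gene. Without Pcdhb1, a beta gene was read 112 to 1014 times in a neocortex library and 71 to 727 times in a CA1 library, so at the lowest of these counts, 71 for Pcdhb8, counting error alone came to 11.9% of the value. Beta genes resemble each other, and 0% of the 50-base windows of Pcdhb1 and 11.3% of those of Pcdhb21 occur elsewhere in annotated exons, with the other beta genes between them except Pcdhb12. Pcdhb12 shared 64.2%, because the antisense model Gm37446 lies over it. How the counting treated such reads is not given in the sources used here, so Pcdhb12 in the unstranded CA1 libraries is uncertain.

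Beta genes were read at very different levels, in nearly the same order in both tissues. In CPM per kilobase of exon, Pcdhb17 was highest in the controls, at 5.59 ± 0.33 (SD, n = 3) in the neocortex and 5.77 ± 0.18 (SD, n = 3) in the CA1. Pcdhb7, Pcdhb3 and Pcdhb20 followed in both tissues. Pcdhb7 stood at 4.41 ± 0.37 (SD, n = 3) and 5.18 ± 0.67 (SD, n = 3), Pcdhb3 at 4.39 ± 0.28 (SD, n = 3) and 4.49 ± 0.47 (SD, n = 3), and Pcdhb20 at 4.04 ± 0.38 (SD, n = 3) and 3.57 ± 0.45 (SD, n = 3). Pcdhb21, at 0.680 ± 0.11 (SD, n = 3) and 0.933 ± 0.044 (SD, n = 3), was the lowest apart from Pcdhb1.

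Neighbours in this order were mostly not separable. In each tissue the ranges of 16 of 21 neighbouring pairs overlapped. Pcdhb17 was above Pcdhb7 without overlap in the neocortex, and their ranges overlapped in the CA1. In the neocortex the 4 highest genes were set apart from Pcdhb5, at 2.77 ± 0.21 CPM per kilobase (SD, n = 3). Across the 22 genes, which share their libraries and lengths, the control levels of the tissues correlated with Spearman's rho of 0.944. Pearson's r was 0.972 on the log2 scale, where Pcdhb1 lies far below the other genes and weighs heavily. Pcdhb1 was close to silent, with 0 to 8 reads in a neocortex library and 2 to 19 in a CA1 library, and it did not pass the filter on low counts in the neocortex, leaving 23 members tested there and 24 in the CA1.

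**Figure D1:**
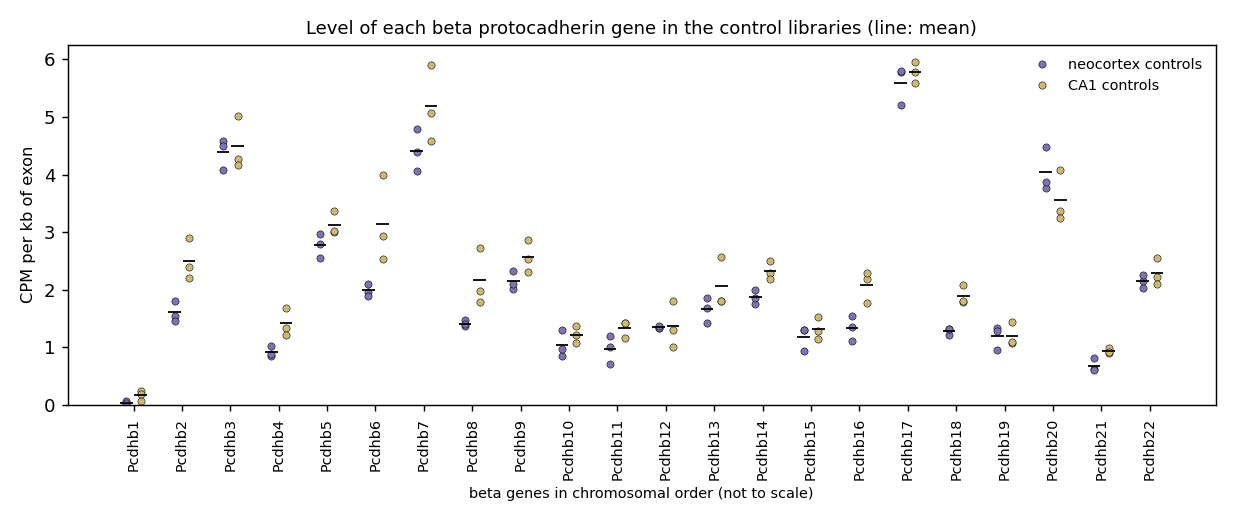
Level of each beta gene in the 3 control libraries of the neocortex (purple) and of the CA1 (yellow), in CPM per kilobase of exon on a linear axis, with genes in chromosomal order; points are libraries and short lines are means. Pcdhb17, Pcdhb7, Pcdhb3 and Pcdhb20 stand highest in both tissues and Pcdhb1 lies near 0.

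In the CA1, 3 beta genes at the upstream end of the cluster, Pcdhb2, Pcdhb3 and Pcdhb6, were lower in KO than in control mice, to between 55.8% and 64.6% of the control level, and most other beta genes leaned the same way without passing the test. The alpha row did not differ. KO and control were compared with edgeR's quasi-likelihood test, with p-values adjusted by Benjamini-Hochberg over all genes tested and a threshold of 0.05. The test called 3 of 24 members lower and 0 higher, where 1.41% of the 18274 genes tested were called lower and 2.47% higher, 3.89% in all. The p-values rest on the spread between these few animals, with an estimate for each gene that also draws on the other genes tested.

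Pcdhb2 was read at 4.41 CPM in D5130 and 3.27 in D5133, the KO animals, against 6.66 CPM in D5134, 6.13 in D5135 and 8.02 in D5138, the control animals. Both KO libraries were below every control. The log2 fold change was -0.84 (SE 0.19, adjusted p = 0.0223, edgeR).

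Pcdhb3, its neighbour and one of the most highly read beta genes, was read at 11.99 and 9.92 CPM in the same KO libraries and at 16.2, 15.8 and 19.0 CPM in the controls. It too separated the groups, with a log2 fold change of -0.63 (SE 0.13, adjusted p = 0.0151, edgeR). Pcdhb6 was read at 4.09 and 5.02 CPM in KO and at 6.21, 7.19 and 9.78 CPM in the controls, a log2 fold change of -0.78 (SE 0.20, adjusted p = 0.0481, edgeR). The female D5138 gave the highest control value of all 3 genes and of most other beta genes.

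Pcdhb8 fell just short of the threshold, at 3.01 and 2.83 CPM in KO against 4.16, 4.64 and 6.37 CPM, a log2 fold change of -0.80 (SE 0.21, adjusted p = 0.0520, edgeR). Pcdhb17, the most highly read beta gene, was counted at 14.3 and 15.3 CPM in KO and at 18.3, 18.9 and 19.5 CPM in controls. Its log2 fold change was -0.35 (SE 0.10, adjusted p = 0.0718, edgeR). Neither gene's groups overlapped. Pcdhb1 had the most negative log2 fold change, -1.30, with an SE of 0.70 from its few reads (adjusted p = 0.372, edgeR).

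**Figure D2:**
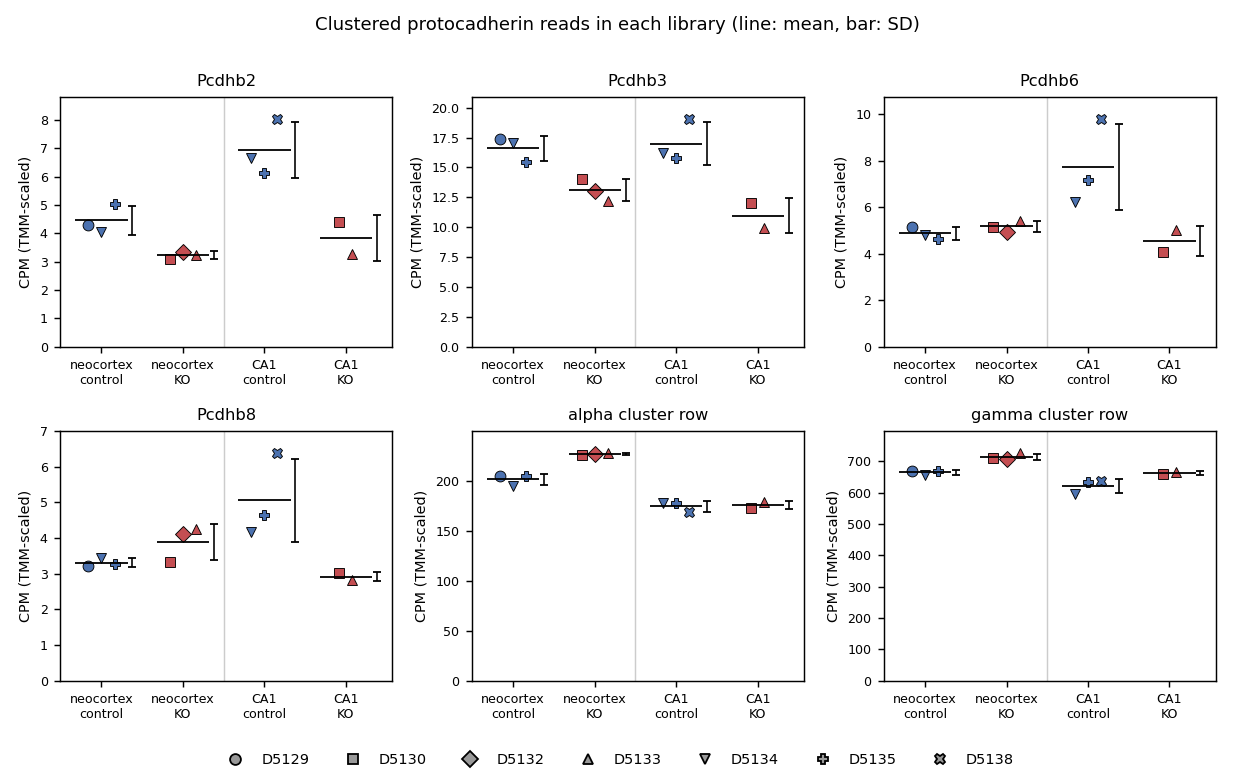
Reads of 4 beta genes and of the alpha and gamma rows in each library, in CPM with TMM-scaled library sizes on linear axes from 0; each symbol is 1 animal, blue for control and red for KO, lines are means and bars beside them are SDs. In the CA1 both KO libraries lie below all 3 controls for Pcdhb2, Pcdhb3, Pcdhb6 and Pcdhb8, and in the neocortex all 3 KO libraries lie below the controls for Pcdhb2 and Pcdhb3 and above them for the alpha and gamma rows.

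Over the beta genes as a group, 20 of 22 had a log2 fold change below 0 in the CA1, with a median of -0.34, where 50.1% of all genes tested were below 0 and the median of all genes was -0.00041. The exceptions were Pcdhb14 and Pcdhb15. For 11 members, all of them beta genes, both KO libraries were below every control, where 16.3% of all genes were. These were Pcdhb2, Pcdhb3, Pcdhb4, Pcdhb6, Pcdhb7, Pcdhb8, Pcdhb13, Pcdhb17, Pcdhb18, Pcdhb19 and Pcdhb21, named here for that pattern after their values were seen. At an unadjusted p under 0.05, 9 members were lower and 0 higher, where 7.78% of all genes were lower. The beta genes share libraries, so these counts are not independent of each other.

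The CA1 calls rested on few animals. Without the female control D5138, edgeR called 0 of the members, where 0.374% of all genes were called lower and 0.988% higher. At an unadjusted p under 0.05 there were then 6 members, where 13.0% of all genes were. Without the KO animal D5133 the CA1 had 1 KO library left, so only fold changes are given for that fit. Without D5133 the log2 fold changes were -0.66 for Pcdhb2, -0.51 for Pcdhb3, -0.93 for Pcdhb6 and -0.76 for Pcdhb8. Without D5138 the log2 fold changes were -0.72 for Pcdhb2, -0.54 for Pcdhb3, -0.56 for Pcdhb6 and -0.59 for Pcdhb8. The beta median, -0.34 with all libraries, was -0.22 without D5138, -0.24 without the KO animal D5130 and -0.42 without D5133. The medians of all genes in these 3 fits were 0.0014, -0.0034 and -0.0048. Below 0 were 20 of 23 members without D5138, 17 of 24 without D5130 and 22 of 24 without D5133. Leaving out D5138 cannot remove any of the 11 beta genes with both KO libraries below every control, and it added none. The share of all genes with this pattern rose from 16.3% to 20.8%.

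The alpha row, the total over all alpha isoforms, was read at 172.5 and 178.1 CPM in the CA1 KO libraries and at 177.1, 177.4 and 168.2 CPM in the controls. The groups overlapped, and the log2 fold change was 0.0088 (SE 0.059, adjusted p = 0.964, edgeR). The gamma row stood at 659 and 667 CPM in KO and at 596, 634 and 636 CPM in controls, a log2 fold change of 0.09 (SE 0.052, adjusted p = 0.400, edgeR). Both KO libraries were above every control for the gamma row, as for 17.4% of all genes.

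In the neocortex, 0 of 23 members passed the test, where 1.20% of the 16971 genes tested were called lower and 1.51% higher, 2.71% in all. At an unadjusted p under 0.05, 4 members differed, where 18.0% of all genes did. These 4 were Pcdhb2 and Pcdhb3, with negative values (9.02% of all genes), and the alpha and gamma rows, with positive ones (8.94% of all genes). By DESeq2, Pcdhb3 was called lower (adjusted p = 0.0181) and the alpha row higher (adjusted p = 0.0318), where it called 2.56% of all genes lower and 2.87% higher. Of the beta genes, 13 of 21 were below 0, with a median of -0.07, where 49.4% of all genes were below 0 and their median was 0.0021.

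Pcdhb2 was read at 3.10, 3.35 and 3.25 CPM in the neocortex KO libraries D5130, D5132 and D5133, and at 4.28, 4.05 and 5.02 CPM in the controls D5129, D5134 and D5135. The groups did not overlap, with a log2 fold change of -0.46 (SE 0.14, adjusted p = 0.114, edgeR). Pcdhb3 was read at 14.0, 13.0 and 12.2 CPM in KO against 17.4, 17.0 and 15.4 CPM, again without overlap, a log2 fold change of -0.35 (SE 0.090, adjusted p = 0.0635, edgeR). These were the 2 members whose KO libraries were all below the controls, a pattern that 12.4% of all genes showed.

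The alpha row stood at 225.1, 227.0 and 227.0 CPM in the neocortex KO libraries and at 204.4, 195.0 and 204.2 CPM in the controls. Every KO library was above every control, although the difference was small, with a log2 fold change of 0.17 (SE 0.047, adjusted p = 0.0771, edgeR). The gamma row, at 710, 707 and 725 CPM in KO against 670, 656 and 668 CPM, had a log2 fold change of 0.10 (SE 0.044, adjusted p = 0.240, edgeR). Pcdhb14 was the third member above all controls, at 7.42, 7.22 and 8.11 CPM against 6.87, 6.02 and 6.39, with a log2 fold change of 0.24 (SE 0.11, adjusted p = 0.306, edgeR). Of all genes, 11.6% had every KO library above every control.

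The remaining beta genes of the neocortex overlapped between the groups, including Pcdhb6 with a log2 fold change of 0.09 (SE 0.12), Pcdhb8 with 0.24 (SE 0.15), Pcdhb17 with -0.11 (SE 0.083), Pcdhb20 with -0.17 (SE 0.10) and Pcdhb10 with 0.03 (SE 0.18). The ERCC profile split the neocortex libraries into a set with D5129, D5130 and D5132 and a set with D5133, D5134 and D5135. Within these sets the log2 fold changes were -0.41 and -0.48 for Pcdhb2, -0.36 and -0.40 for Pcdhb3, 0.14 and 0.19 for the alpha row, and 0.08 and 0.14 for the gamma row. Scaled to the ERCC reads instead of all genes, the median of all genes moved to a log2 fold change of 1.06 and 0 of 23 members stayed below 0, so the directions given for the neocortex are relative to the other genes.

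**Figure D3:**
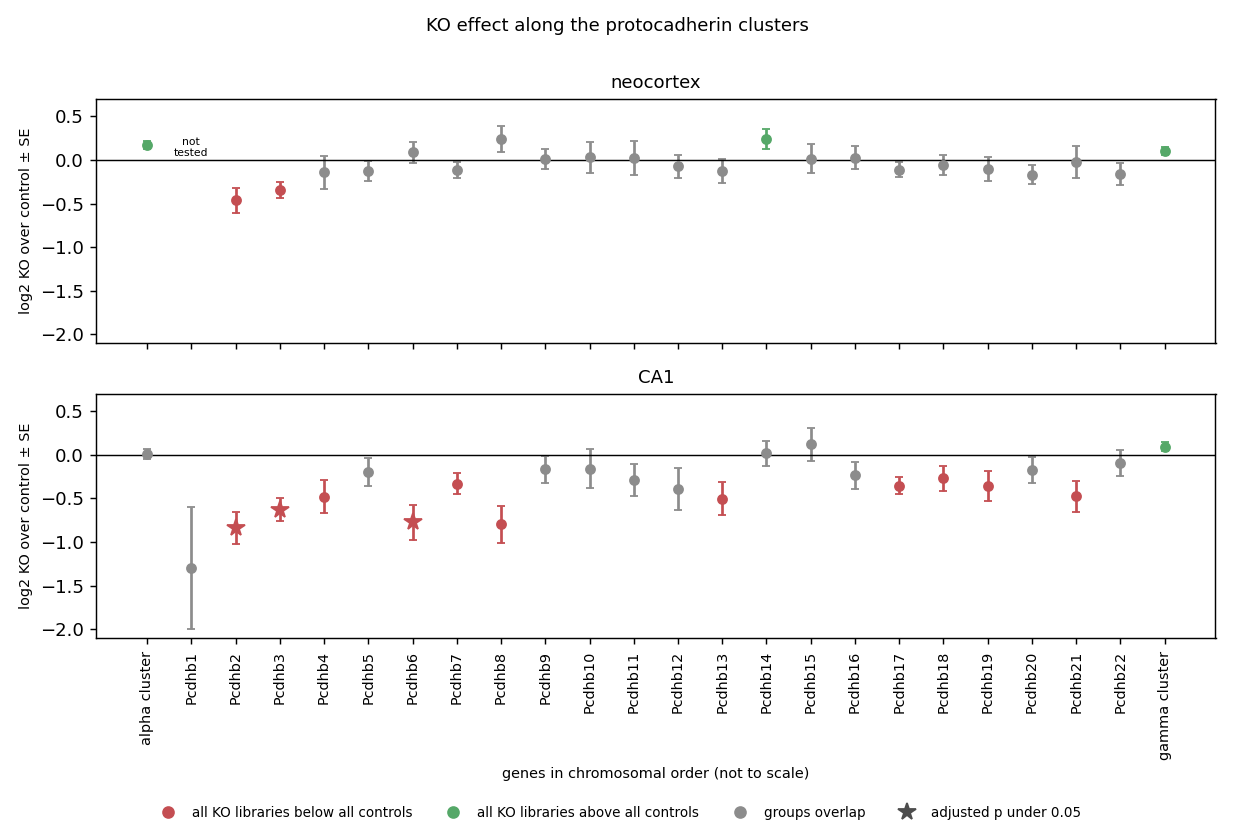
Log2 KO over control for each row in chromosomal order, with its SE as bars, in the neocortex (top) and the CA1 (bottom); red marks rows with all KO libraries below all controls, green the reverse, grey an overlap and stars an adjusted p under 0.05. In the CA1 most beta genes lie below 0, with stars at Pcdhb2, Pcdhb3 and Pcdhb6, and in the neocortex only Pcdhb2 and Pcdhb3 are red.

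Whether the KO effect differed between the tissues was tested as an interaction over all 11 libraries. In that fit 0 of 24 members passed, where 0.0935% of the 19256 genes tested did, and 3 had an unadjusted p under 0.05, where 9.51% of all genes did. Pcdhb8 had a CA1 effect more negative by 1.03 on the log2 scale (interaction of -1.03, SE 0.26, adjusted p = 0.172, edgeR), and Pcdhb6 one more negative by 0.86 (interaction of -0.86, SE 0.24, adjusted p = 0.217, edgeR). DESeq2 called Pcdhb8 (adjusted p = 0.0387) and 0.826% of all genes. The alpha row had an interaction of -0.16 (SE 0.068, adjusted p = 0.459, edgeR).

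The interaction was below 0 for 20 of 22 beta genes, with a median of -0.26, where the median of all genes was 0.0067. With animal as a block the beta median was -0.21, and without D5138 it was -0.20. The beta genes share libraries, so the count is not independent across genes. The interaction was -0.38 (SE 0.24) for Pcdhb2 and -0.28 (SE 0.16) for Pcdhb3, the genes whose groups separated in both tissues. The tissues differed in library kit, and 4 of the 7 animals gave both.

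Ratios within a library do not depend on how libraries are scaled to each other. In the CA1 the summed beta reads came to 0.795 and 0.852 of the alpha row in the KO libraries D5130 and D5133, against 0.971, 0.966 and 1.21 in the controls D5134, D5135 and D5138. In the neocortex they came to 0.636, 0.644 and 0.639 in KO against 0.774, 0.748 and 0.782 in control. The KO ratios were below the control ratios in both tissues without overlap. No p is given, since the sum was formed with these results known.

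The parts of that ratio are described here by their values, and the beta sum was not tested. In the CA1 the beta sum itself was lower, at 137 and 152 CPM in KO against 172, 171 and 204 CPM, with the alpha row level. In the neocortex the beta sums were 143.1, 146.2 and 145.0 CPM in KO and 158.3, 145.9 and 159.7 CPM in the controls. They overlapped by a small margin, with the KO mean at 93.6% of the control mean. The alpha row separated without overlap. Against the gamma row the beta sum came to 0.208 and 0.227 in the CA1 KO libraries and 0.270 to 0.321 in their controls, and to 0.200 to 0.207 in the neocortex KO libraries and 0.222 to 0.239 in their controls. The gamma to alpha ratio was 3.11 to 3.19 in the neocortex KO libraries and 3.27 to 3.36 in the controls. In the CA1 it overlapped, at 3.75 and 3.82 in KO and 3.37 to 3.78 in control.

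**Figure D4:**
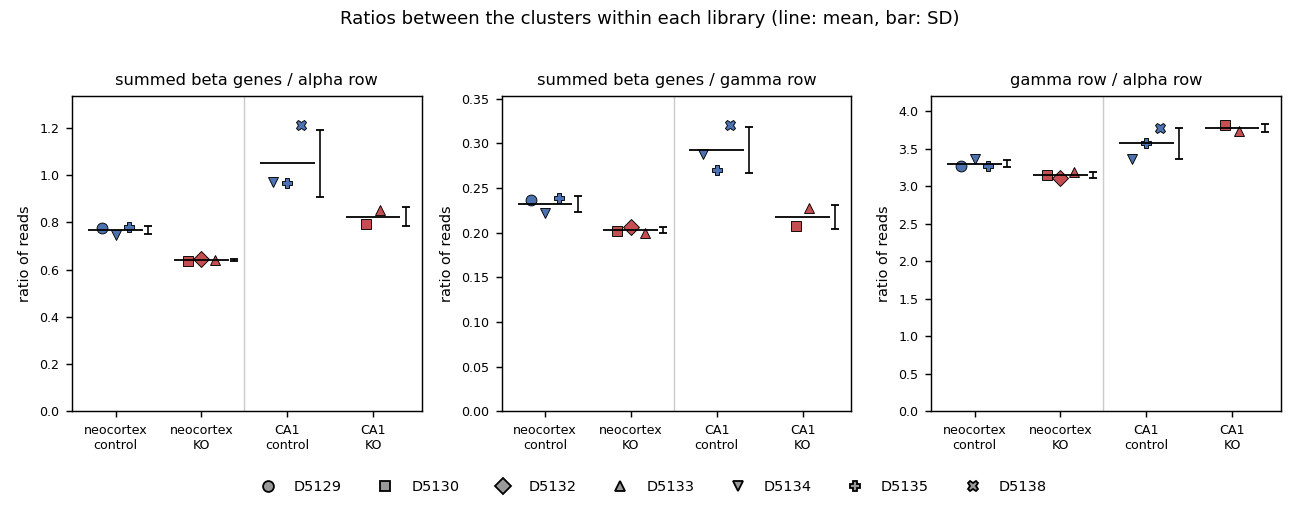
Ratio of summed beta reads to the alpha row, of summed beta reads to the gamma row, and of the gamma row to the alpha row within each library, on linear axes from 0; symbols are animals, blue for control and red for KO, lines are means and bars SDs. The beta to alpha ratio is 0.636 to 0.644 in the neocortex KO libraries and 0.795 and 0.852 in the CA1 KO libraries, below every control of the same tissue.

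Within the beta cluster, the upstream genes Pcdhb2, Pcdhb3 and Pcdhb4, grouped after their values were seen, took 14.9% and 11.0% of the beta reads in the CA1 KO libraries and 15.4% to 16.3% in the controls. They took 12.3% to 14.0% in the neocortex KO libraries and 14.9% to 16.6% in the controls. Across 21 beta genes, without Pcdhb1, the CA1 log2 fold change and the position along the cluster correlated with r of 0.51 and rho of 0.46, and genes nearer the alpha cluster had the more negative values. In the neocortex r was 0.22 and rho 0.11. In the CA1 the log2 fold change had r of -0.06 with the control level, -0.04 with the share of repeated windows, -0.22 with the G and C content and 0.12 with exon length. These are descriptions over genes that share libraries, and the log2 fold changes of the tissues, which share 4 animals, are given side by side above.

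Mature miRNAs, the products of Dicer, pair through their seed, bases 2 to 8, with matches in 3′ UTRs. The longest annotated 3′ UTR of each cluster gene was searched for 8-base matches to 9 neuronal miRNA families, each match being the complement of the seed followed by an A, on the transcript strand. The families were let-7, miR-9, miR-128, miR-138, miR-29, miR-26, miR-181, miR-30 and miR-137, and miR-124 was not searched. The 4 families with a match in the clusters are shown because their matches fall in the alpha row and 2 beta genes, with the seed in capitals (mature sequences from RefSeq, GRCm38.p6).
mmu-miR-29a-3p: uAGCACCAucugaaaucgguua
mmu-miR-181a-5p: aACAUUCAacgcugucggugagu
mmu-miR-30a-5p: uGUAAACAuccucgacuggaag
mmu-miR-9-5p: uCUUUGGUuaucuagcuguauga

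The 14 alpha models share 1 3′ UTR of 2401 bases, which holds a miR-181 match, TGAATGTA, at base 1513 after the stop codon and a miR-29 match, TGGTGCTA, at base 2350. Of 21013 protein-coding genes with an annotated 3′ UTR, 5.29% hold the first and 2.86% the second. Among the 22 beta genes, Pcdhb14 holds matches to miR-181 and to miR-30 (TGTTTACA) in a 3′ UTR of 6117 bases that runs beyond the counted row, and Pcdhb5 a match to miR-9 (ACCAAAGA). The share over all genes is 6.79% for miR-30 and 4.13% for miR-9. None of the 9 matches occurs in the 21 gamma models with an annotated 3′ UTR, nor in Pcdhb2, Pcdhb3, Pcdhb6 or Pcdhb8. Of the rows with a match, the alpha row and Pcdhb14 had every KO library above every control in the neocortex and overlapped in the CA1. The gamma row, without a match, had every KO library above every control in both tissues. Both Pcdhb14 matches, at bases 1653 and 4636 after the stop codon, lie beyond the part of the gene that was counted. Pcdhb5 overlapped in both tissues, with log2 fold changes of -0.13 (SE 0.11) and -0.20 (SE 0.16). A letter match is not a measured binding site, and its part in these values was not tested.

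Of 26 genes for the proteins that fold the locus or set promoter methylation and chromatin, 3 rose in the neocortex and 1 in the CA1, with none lower. Dnmt3a, a de novo DNA methyltransferase, rose in both, by a log2 fold change of 0.76 (SE 0.072, adjusted p = 0.0011, edgeR) in the neocortex and of 0.59 (SE 0.070, adjusted p = 0.00050, edgeR) in the CA1. Tet1, which oxidises methylated cytosine, rose by 0.64 (SE 0.11, adjusted p = 0.0152, edgeR) and the zinc finger gene Wiz by 0.26 (SE 0.053, adjusted p = 0.0238, edgeR) in the neocortex. Ctcf, whose product anchors the promoter loops, had log2 fold changes of 0.05 (SE 0.052) and 0.02 (SE 0.071), and the cohesin subunit gene Rad21 0.02 (SE 0.049) and -0.02 (SE 0.062), in neocortex and CA1. The median of the list was 0.10 in the neocortex and 0.03 in the CA1, against 0.0021 and -0.00041 over all genes.

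Of 17 genes for partners of the cytoplasmic domains, none passed in the neocortex by edgeR and 2 fell in the CA1. At an unadjusted p under 0.05 there were 3 in the neocortex, close to the 18.0% of all genes, and 6 in the CA1, where 17.3% of all genes were. Those that fell were Cyfip2, a subunit of the WAVE actin regulator, at -0.20 (SE 0.053, adjusted p = 0.0499, edgeR), and the kinase gene Prkca at -0.26 (SE 0.054, adjusted p = 0.0171, edgeR). In the neocortex the smallest p belonged to Marcks, a membrane-bound actin regulator, with a log2 fold change of -0.20 (SE 0.054, adjusted p = 0.0757, edgeR), and Brk1, a WAVE subunit, with -0.17 (SE 0.059, adjusted p = 0.148, edgeR). Of 6 genes for proteases that cut protocadherins, none passed in either tissue (1 in the neocortex and 0 in the CA1 at an unadjusted p under 0.05, edgeR). Adam10, the sheddase, had log2 fold changes of 0.32 (SE 0.091, adjusted p = 0.0930, edgeR) in the neocortex and 0.15 (SE 0.096) in the CA1.

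Protocadherins outside the clusters were mostly not called. None of 11 tested passed in the neocortex (2 at an unadjusted p under 0.05, edgeR, a share near that of all genes: Pcdh10 with a log2 fold change of 0.19 and Pcdh1 with 0.19) and 1 of 12 fell in the CA1, Pcdh11x, at -0.79 (SE 0.18, adjusted p = 0.0245, edgeR). At an unadjusted p under 0.05, 5 of these 12 differed in the CA1 (edgeR), where 17.3% of all genes did. Their median log2 fold change there was -0.085. Of 15 tested genes beside or between the clusters, Cd14, a microglial receptor gene upstream of the alpha cluster, rose in both tissues, by 0.65 in the neocortex (adjusted p = 0.0328, edgeR) and 1.23 in the CA1 (adjusted p = 0.0032, edgeR), and Rell2 fell in the neocortex by 0.24 on the log2 scale (adjusted p = 0.0435, edgeR). Taf7, which lies between the beta and gamma clusters, had log2 fold changes of 0.06 (SE 0.12) and -0.0087 (SE 0.13).

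Markers of other cell types moved in the CA1 libraries in which beta genes were lower. Of 7 CA1 pyramidal cell markers 2 fell, Wfs1 and Pou3f1, and the summed level of the list was 388 to 407 CPM in KO and 524 to 565 in control. Of 8 oligodendrocyte markers 7 fell, with sums of 2956 to 2978 CPM against 3607 to 4374. Rises were seen in 4 of 8 microglial markers (383 to 440 CPM against 309 to 330), 2 of 8 astrocyte markers (2888 to 3108 against 2368 to 2459), 1 of 8 endothelial markers and 3 of 8 meningeal fibroblast markers (205 to 241 against 95.1 to 103), and 1 of 8 oligodendrocyte precursor markers fell. Of the inhibitory neuron markers and of the dentate granule cell markers, 8 in each list, none passed in either tissue by edgeR, with 3 and 2 in the neocortex and 1 and 2 in the CA1 at an unadjusted p under 0.05. Excitatory neuron markers summed to 4717 to 5172 CPM in KO and 5271 to 5936 in control. Dcn is in both the CA1 pyramidal and the meningeal fibroblast list, so the sums of these lists share a gene.

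In the neocortex, outside the excitatory markers given above, 1 marker passed in each of 2 lists, Trem2 of microglia, which rose, and Wfs1, which fell. Some summed levels separated there too. Excitatory markers summed to 4929 to 5044 CPM in KO against 5669 to 5744, and the CA1 pyramidal list to 193 to 207 against 229 to 266. Sums were higher in KO for astrocytes (2395 to 2693 against 2280 to 2356) and inhibitory neurons (1242 to 1291 against 1179 to 1199). Endothelial sums were lower (200 to 205 against 208 to 237), and those of the remaining lists overlapped. In the CA1 libraries only a list of 8 choroid plexus and ependyma markers had genes at 0, up to 2 in a KO library and 1 in a control. Its sums were 23.6 to 27.1 CPM in the CA1 KO libraries and 29.8 to 38.9 in the controls. None of its 7 tested genes passed in either tissue (edgeR). The part of these cell types in the protocadherin values was not tested. Antisense rows were small beside the cluster rows. Gm26672, opposite the gamma cluster, was read at 0.138% to 0.303% of the gamma row in the stranded neocortex libraries and at 2.70% to 3.36% in the unstranded CA1 libraries.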

How the data were processed

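Polyadenylated RNA of 11 libraries from 7 mice was sequenced, with a stranded kit and ERCC spike-ins for the neocortex and an unstranded kit for the CA1, per the labels' protocols. The values are the deposited raw counts of reads for each Ensembl gene, with no normalization by the authors. FastQC, GSNAP, SAMtools, bedtools and the build GRCm38 are named per the submitters' processing notes. Versions, counting rule and strand setting are not given in the sources used here. Symbols came from GENCODE M21 by identifier (96.4% of gene rows matched).

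Within a tissue, KO was set against control with edgeR 4.0.16 (TMM, filterByExpr, robust quasi-likelihood F-test, two-sided) in R 4.3.3 over the whole table, and tissues by an interaction over 4 group means. The SE is the log2 fold change over the square root of F. DESeq2 1.42.0, its size factors, no filter, ERCC scaling, the ERCC set as a term and each library left out were alternatives. The fits were tested on simulated counts.

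Members, gene lists and tests were chosen with earlier results of these data known. Named with values are members past the threshold, the 4 of each cluster with the smallest p per tissue, the highest and lowest read member, and list genes past the threshold or with the smallest p. Others are named as stated. The labels give 4 animals in both tissues, and deviations of their libraries from the group means correlated between tissues with r of 0.144 to 0.211 over 16544 genes, so the interaction was also fitted with animal as a block. No libraries were copies (chi-square per gene of 9.99 to 22.1). Intervals from counting cover counting error only.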

Additional observations from a re-analysis of the deposited data

How the results depend on the processing

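With no filter on low counts the members called lower in the CA1 went from 3 to 6 (Pcdhb8, Pcdhb13 and Pcdhb17 were added), while the share of all genes called lower went from 1.41% to 2.33%. Those called lower in the neocortex went from 0 to 1 (Pcdhb3; all genes 1.20% to 1.55%) and those past the interaction threshold from 0 to 2 (all genes 0.0935% to 0.869%). By DESeq2 1 member was called lower and 1 higher in the neocortex, and 1 passed the interaction. DESeq2 size factors and the DESeq2 test each called 4 members lower in the CA1, with 1.55% and 2.28% of all genes. Leaving out 1 control library gave 0 to 4 members called lower in the CA1 (0 without D5138), where 0.374% to 1.61% of all genes were. Alternatives that left out libraries for the counts of members without overlap, chosen after seeing the data, gave 2 to 7 lower and 3 to 5 higher in the neocortex, and 11 to 19 lower and 1 to 4 higher in the CA1. The share of all genes rises too when fewer libraries are left, for lower from 12.4% to between 15.2% and 17.9% in the neocortex and from 16.3% to between 20.8% and 30.9% in the CA1, with 29.3% beside the 19. For higher, the share rises from 11.6% to between 14.7% and 17.7% in the neocortex. In the CA1 that share rises from 17.4% to between 21.9% and 31.0%, with 30.4% beside the 4. With animal as a replicate block, 0 members passed the interaction test, as without it.

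Under ERCC scaling the neocortex log2 fold changes turned positive, to 0.64 for Pcdhb2, 0.68 for Pcdhb3, 0.98 for Pcdhb17 and 0.97 for Pcdhb20. The ERCC share of the reads varied within groups, from 0.189% to 0.686% in the controls and from 0.113% to 0.268% in KO. Under this scaling edgeR called 0.0236% of all genes. In the ERCC set of D5133, D5134 and D5135 alone, Pcdhb20 was at 0.076 and Pcdhb10 at -0.15. With 1 library left out, Pcdhb10 in the neocortex ranged from -0.10 to 0.22 and the alpha row in the CA1 from -0.020 to 0.033, so the sign of both turned with the library left out. The cause of these changes was not tested. A planned correction for shared constant exons was not run, because each of these clusters has 1 row. With 2 KO libraries in the CA1, and arms of 1 or 2 libraries when one is left out, single libraries decide calls, and a lone library is assumed to vary like the others.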
